A study of Mus musculus with 24 samples.

Results

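Liver RNA of 28-week-old ApoF knockout mice was set against that of wild-type mice of the same age, with 3 C57BL/6 animals per genotype. All 25239 genes of the authors' deposited table for these input libraries were taken, the same 25239 that the study lists in its other RNA comparisons. The study also holds 8-week-old animals of both genotypes and, for each of its 12 livers, a second library of RNA pulled down for N6-methyladenosine, or m6A, the methylated adenosine found in many messenger RNAs. The input libraries used here were not pulled down. The labels name the genotype as ApoF gene knockout and give neither the deleted part of the gene nor the sex, feeding state or hour of collection. Libraries came from stranded messenger RNA with unique molecular identifiers.

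Apolipoprotein F is made by hepatocytes, the main cells of the liver, and circulates on lipoproteins, where it is known to modulate the transfer of cholesteryl esters and triglycerides between particles. A liver sample also holds sinusoidal endothelial cells, which line its capillaries and clear waste from the blood, Kupffer cells, which are resident macrophages, stellate cells, which make matrix, and bile duct cells. Hepatocytes run a circadian clock in which BMAL1 and CLOCK switch on Per, Cry and output genes through E-box motifs, so many liver messenger RNAs rise and fall within a day.

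The table gives 1 mean over the 6 libraries and 1 ratio per gene, so levels below are the group means that these values imply, and the spread between animals enters through the standard error (SE) of the ratio. Ratios are log2 values ± SE from 3 animals per genotype, positive where the knockout was higher. No count was listed for 7405 genes, and 14391 genes carried an adjusted p. Both groups held Y-linked RNA and Xist with wide errors, given in full with the sex-biased genes. Mean normalized counts summed to 39824284.7, and library depths were not used here. Hepatocyte markers were abundant, as the liver label implies: all 18 on the list were tested and together they held 5893191 normalized counts in knockout livers, against 6167740.5 in wild-type livers.

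Few genes were called different between the genotypes. With 3 animals per genotype, a gene not called is not shown to be unchanged. Of 14391 genes tested, the authors' deposited table called 37 at an adjusted p under 0.05 (0.257%), with 12 higher in knockout livers (0.0834%) and 25 lower (0.174%). At an unadjusted p under 0.05 the authors' test had 389 of these genes higher (2.7%) and 425 lower (2.95%). Among the called genes, 9 were at least 2-fold higher and 7 at least 2-fold lower, and the other 21 differed by less than 2-fold. The median log2 ratio of all tested genes was 0.01 and 48.0% of them lay below 0. Called genes ranged in mean level from 42.1 to 17849 normalized counts. Over all genes with a p, adjusted or not, 215 passed an unadjusted p under 0.05 and a 2-fold difference by the authors' test. Only 16 of those passed the adjusted p. The calls rest on the Wald test's normal reference: with a t reference on 4 degrees of freedom no gene passed (lowest adjusted p = 0.9998), with 206 at an unadjusted p under 0.05, against 814 in the authors' test. Over 14391 genes this t reference passes only ratios very many times their SE, so its count of 0 does not judge single calls.

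**Figure D1:**
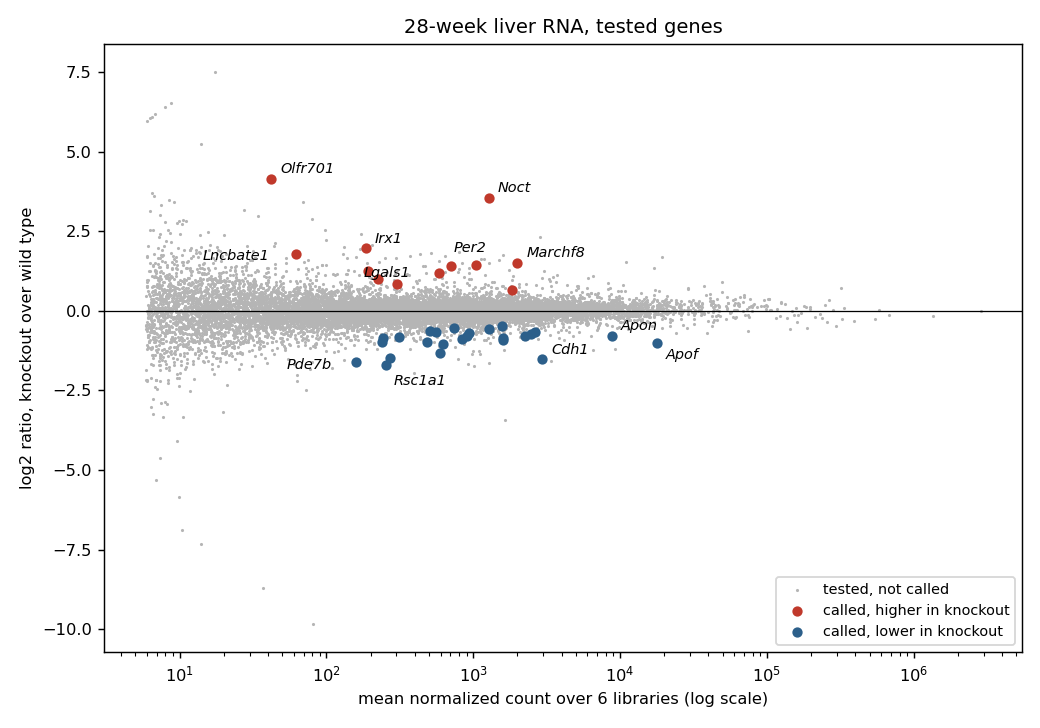
Log2 ratio of knockout over wild type at 28 weeks (vertical axis) against the mean normalized count over 6 libraries (horizontal axis, log scale) for the 14391 tested genes. Red points are the 12 called genes higher in the knockout, blue points the 25 called genes that were lower, and grey points the genes not called. Noct and Olfr701 stand highest among the called genes and Apof has the highest mean.

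Apof, the targeted gene, was lower in knockout livers but still abundant. It averaged 11839 normalized counts in knockout livers, against 23860.3 in wild-type livers (log2 ratio -1.01 ± 0.16, adjusted p = 2.53e-06) per the authors' deposited table, which is 49.6% of the wild-type level. The deleted part is not in the labels, so reads from the rest of the gene could remain and this level does not check the genotype. Reads at its 2 listed m6A sites gave a second count from the same input libraries, with 18923 input reads in the knockout group, against 37067 in the wild-type group. Apon, the apolipoprotein gene next to Apof in the RefSeq annotation of GRCm38.p6, averaged 6475 normalized counts in knockout livers, against 11136 in wild-type livers (log2 ratio -0.78 ± 0.10, adjusted p = 9.28e-11) per the authors' deposited table. Stat2, a transcription factor of interferon signalling whose annotated span overlaps that of Apof, did not pass (-0.17 ± 0.14, adjusted p = 0.9998) per the authors' deposited table.

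No other apolipoprotein or gene of lipoprotein assembly was called. Of 26 tested, 0 rose and 2 fell, namely Apof and Apon, and the list's median log2 ratio was 0.05. Apoc1, a small apolipoprotein of HDL and VLDL, averaged 117272 normalized counts in knockout livers, against 90445 in wild-type livers (0.37 ± 0.14, adjusted p = 0.414) per the authors' deposited table. Apoc1 did not pass the test.

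No gene of sterol or fatty acid metabolism was called on the lists examined. Among 20 genes of HDL remodelling and cholesterol efflux, 0 were called and the median was 0.13. Among 24 genes of cholesterol synthesis, 0 were called, 18 lay below 0 and the median was -0.18. Scap, which escorts the sterol sensor SREBP, stood at -0.52 ± 0.17, adjusted p = 0.249, and Hmgcs1, an early enzyme of the pathway, at -0.48 ± 0.25, adjusted p = 0.912 per the authors' deposited table. Among 23 genes of fatty acid and triglyceride synthesis, 0 were called, and Scd1, the stearoyl-CoA desaturase, averaged 398197 normalized counts in knockout livers, against 240779 in wild-type livers (0.73 ± 0.52, adjusted p = 0.9998) per the authors' deposited table. Fatty acid oxidation, ketogenesis and PPAR alpha targets had 0 calls among 30 genes, 0 at an unadjusted p under 0.05 by the authors' test, and a median of 0.08. Lipid droplet and lipid uptake genes had 0 calls among 23, with the widest tested ratios in Cidec, a droplet fusion protein that averaged 211 in knockout and 52.7 in wild-type livers (2.003 ± 0.79, adjusted p = 0.553), and Plin4, a perilipin that averaged 569.6 in knockout and 171 in wild-type livers (1.73 ± 0.64, adjusted p = 0.424), per the authors' deposited table. Input reads at m6A sites gave log2 ratios of 0.22 for Cidec and 1.63 for Plin4. Cidea, a relative of Cidec, averaged 208 in knockout and 3.25 in wild-type livers (6.00 ± 2.81) per the authors' deposited table, which gives it no p, and it was chosen after its value was seen. Bile acid synthesis and transport genes had 0 calls among 21, and Cyp7a1, the rate-limiting enzyme, stood at 0.81 ± 0.46, adjusted p = 0.966 per the authors' deposited table.

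Clock genes held 4 of the 37 called genes. Among 24 core genes 1 rose and 1 fell, and among 23 output genes 2 rose, against 0.257% of all tested genes called. Members of both lists were chosen with earlier results of these data known, so these shares are a description. Noct, or nocturnin, a rhythmic phosphatase of NADP(H), averaged 2350.2 normalized counts in knockout livers, against 201 in wild-type livers (log2 ratio 3.55 ± 0.85, adjusted p = 0.0178) per the authors' deposited table, 11.7-fold higher. Per2, a repressor of the clock loop, averaged 1517 normalized counts in knockout livers, against 561 in wild-type livers (1.44 ± 0.34, adjusted p = 0.0174) per the authors' deposited table. Marchf8, a membrane-bound ubiquitin ligase on the list of clock output genes, averaged 2950.4 normalized counts in knockout livers, against 1038 in wild-type livers (1.51 ± 0.38, adjusted p = 0.0383) per the authors' deposited table. Csnk1e, the kinase that phosphorylates PER proteins, moved the other way and averaged 144 normalized counts in knockout livers, against 401 in wild-type livers (-1.48 ± 0.33, adjusted p = 0.008) per the authors' deposited table. Input reads at m6A sites gave log2 ratios of 3.69 for Noct, 0.59 for Per2, 0.21 for Marchf8 and -0.26 for Csnk1e, so the last 3 kept under 50% of theirs.

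The other core clock genes did not pass the test. Of 24 core genes, 1 rose and 1 fell. At an unadjusted p under 0.05 by the authors' test, 7 were higher and 5 lower, against 2.7% and 2.95% of all tested genes. As the list was chosen with earlier results known, this too is a description. Dbp, a rhythmic activator of output genes, averaged 4748 in knockout and 949 in wild-type livers (2.32 ± 0.77, adjusted p = 0.264), and its relative Tef averaged 3969 in knockout and 1924 in wild-type livers (1.05 ± 0.36, adjusted p = 0.341), per the authors' deposited table. Ciart, a repressor of the loop, averaged 166 in knockout and 28.6 in wild-type livers (2.54 ± 0.86, adjusted p = 0.298), and Bhlhe41, another, averaged 243 in knockout and 75.6 in wild-type livers (1.68 ± 0.55, adjusted p = 0.262), per the authors' deposited table. The ratio was negative for these: Npas2, a partner of BMAL1, averaged 49.0 in knockout and 169.6 in wild-type livers (-1.79 ± 0.55, adjusted p = 0.2), and Arntl, which encodes BMAL1, averaged 374 in knockout and 804 in wild-type livers (-1.10 ± 0.50, adjusted p = 0.723), per the authors' deposited table. Among 23 output genes 2 rose and 0 fell, and Usp2, a rhythmic ubiquitin protease nearest to a call, averaged 289.7 in knockout and 54.8 in wild-type livers (2.40 ± 0.65, adjusted p = 0.0789) per the authors' deposited table. Arntl and Tef were chosen after their values were seen. Of the 24 core genes, 13 lay above 0 and 11 below. The hour of collection is not in the labels, and its part in these ratios was not tested.

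Promoters are shown for the called genes of the clock core, clock output and lipoprotein lists. Of the 6, 4 were found in the RefSeq table of GRCm38.p6, and Per2 and Apof are named only. Each sequence runs from 250 bases before to 50 after the start site, 5′ to 3′ on the gene's strand, and capitals mark any match, on either strand, to an E-box (CACGTG), a D-box (TTATGTAA), a ROR element (TAGGTCA) or a cAMP response element (TGACGTCA). Noct lies at chr3:51224197-51224496 on the plus strand, Marchf8 at chr6:116337772-116338071 on the plus strand, Csnk1e at chr15:79442094-79442393 on the minus strand (the first of its listed starts) and Apon at chr10:128253881-128254180 on the plus strand.
Noct: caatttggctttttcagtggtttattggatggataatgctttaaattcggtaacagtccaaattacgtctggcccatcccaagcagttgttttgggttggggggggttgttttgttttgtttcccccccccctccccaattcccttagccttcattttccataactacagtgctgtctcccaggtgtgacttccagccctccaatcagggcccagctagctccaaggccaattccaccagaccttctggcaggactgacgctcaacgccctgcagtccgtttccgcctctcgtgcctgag
Marchf8: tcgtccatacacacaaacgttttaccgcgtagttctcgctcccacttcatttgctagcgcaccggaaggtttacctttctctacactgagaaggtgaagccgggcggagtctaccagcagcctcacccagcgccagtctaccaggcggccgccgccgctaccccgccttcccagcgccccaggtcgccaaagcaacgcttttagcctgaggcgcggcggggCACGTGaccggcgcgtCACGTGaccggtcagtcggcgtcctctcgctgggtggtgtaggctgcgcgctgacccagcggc
Csnk1e: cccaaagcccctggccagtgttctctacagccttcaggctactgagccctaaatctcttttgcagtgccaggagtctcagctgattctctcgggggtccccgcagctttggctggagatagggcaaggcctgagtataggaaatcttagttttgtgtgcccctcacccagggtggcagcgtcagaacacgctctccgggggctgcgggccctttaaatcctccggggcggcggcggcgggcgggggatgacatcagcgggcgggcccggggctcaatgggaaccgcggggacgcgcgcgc
Apon: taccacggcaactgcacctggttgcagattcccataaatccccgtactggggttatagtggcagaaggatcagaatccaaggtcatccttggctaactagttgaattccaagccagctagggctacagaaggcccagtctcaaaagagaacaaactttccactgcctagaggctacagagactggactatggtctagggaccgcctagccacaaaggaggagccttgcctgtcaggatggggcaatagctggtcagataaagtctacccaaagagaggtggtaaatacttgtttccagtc
Marchf8 held 2 E-boxes, whose first bases lie 29 and 13 bases before the start site, and the other 3 windows held none of these motifs. Among 27025 promoters of the same length, an E-box occurred in 7.24%, a D-box in 0.955%, a ROR element in 2.64% and a cAMP response element in 1.88%. A match here is a description of the letters in the window and not a site of binding.

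Every sinusoidal endothelial marker examined had a negative ratio, and 2 were called lower in knockout livers. Of 25 markers tested, 0 rose and 2 fell, all 25 had a ratio below 0, and 13 were lower at an unadjusted p under 0.05 by the authors' test, against 2.95% of all tested genes. The list's median was -0.37 and its members lay between -0.67 and -0.13, while the median of all tested genes was 0.01. Members were chosen with results of these libraries known, so their shared direction is a description. Stab2, a scavenger receptor that clears hyaluronan, averaged 2031 normalized counts in knockout livers, against 3231 in wild-type livers (log2 ratio -0.67 ± 0.13, adjusted p = 9.15e-04) per the authors' deposited table. Stab1, its relative, averaged 1308 normalized counts in knockout livers, against 1829.5 in wild-type livers (-0.48 ± 0.12, adjusted p = 0.0214) per the authors' deposited table. Ptprb, the endothelial tyrosine phosphatase, averaged 3379 normalized counts in knockout livers, against 4808 in wild-type livers (-0.51 ± 0.14, adjusted p = 0.083), and Tie1, an endothelial receptor kinase, averaged 332 in knockout and 510.4 in wild-type livers (-0.62 ± 0.18, adjusted p = 0.153), per the authors' deposited table, and neither passed. Fewer cells of a type and less RNA per cell cannot be told apart in bulk tissue.

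Other called genes are also known from vessels and their basement membrane. Fgd5, an exchange factor for CDC42 in endothelial cells, averaged 600.2 normalized counts in knockout livers, against 870.5 in wild-type livers (-0.54 ± 0.13, adjusted p = 0.0231) per the authors' deposited table. Hspg2, which encodes the heparan sulfate proteoglycan perlecan, averaged 1031 normalized counts in knockout livers, against 1546 in wild-type livers (-0.58 ± 0.15, adjusted p = 0.0294) per the authors' deposited table. Col4a1 and Col4a2, the basement membrane collagen chains whose genes share a promoter region, averaged 1864 in knockout and 3111 in wild-type livers (-0.74 ± 0.17, adjusted p = 0.008) and 1134 in knockout and 2049 in wild-type livers (-0.85 ± 0.16, adjusted p = 2.84e-04) per the authors' deposited table. Mmrn2, an endothelial matrix protein close to the threshold, stood at -0.52 ± 0.14, adjusted p = 0.0698 per the authors' deposited table. Among 27 stellate cell, fibroblast and matrix genes, 0 rose and 2 fell, namely the pair of type IV collagens, with 24 below 0 and a median of -0.33. The fibrillar collagen gene Col1a2 averaged 365 in knockout and 608 in wild-type livers (-0.73 ± 0.25, adjusted p = 0.291) per the authors' deposited table.

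Of the further cell type lists examined, none held a called gene. Kupffer cell and macrophage markers had 0 calls among 22, a median of 0.02 and summed levels of 36150.3 normalized counts in knockout livers, against 34708 in wild-type livers. Sinusoidal endothelial markers, by comparison, summed to 29296 in knockout and 38743 in wild-type livers. Hepatocyte markers had 0 calls and a median of -0.04, cholangiocyte markers 0 calls among 12 and a median of -0.29, and lymphocyte and plasma cell markers 0 calls among 16 and a median of -0.13. Neutrophil and erythroid markers had 0 calls among 7, all above 0, with a median of 0.51 and summed levels of 7752 normalized counts in knockout livers, against 6274 in wild-type livers. Of 17 adipose, muscle and pancreas markers only 4 reached the test, with summed levels of 507 in knockout and 419 in wild-type livers. Whether the make-up of the pieces of liver differed was not tested.

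**Figure D2:**
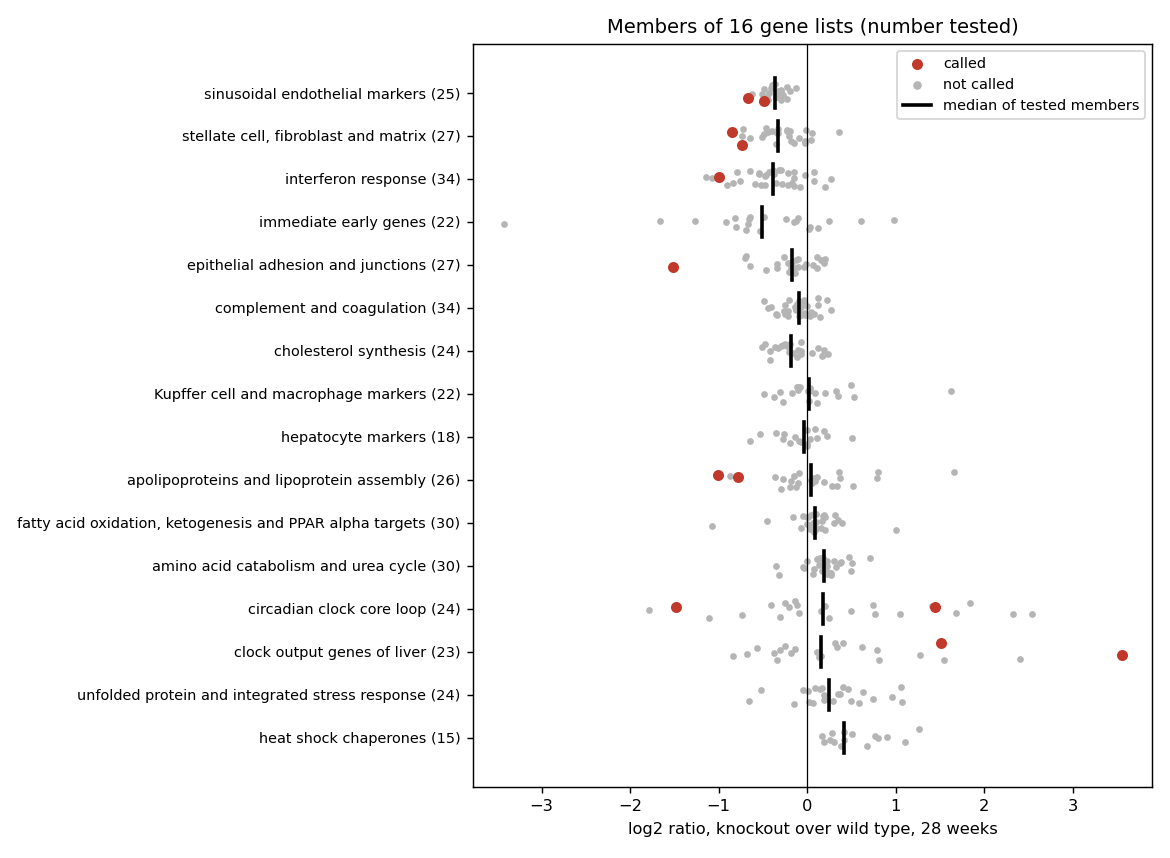
Log2 ratio of knockout over wild type at 28 weeks (horizontal axis) for the tested members of 16 gene lists, one row per list with the number tested in brackets. Red points are called genes, grey points the others, and black bars the medians. All 25 sinusoidal endothelial markers lie left of 0 and all 15 heat shock chaperones right of 0, with 2 and 0 of them called.

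Interferon-induced genes had mostly negative ratios, and 2 called genes belong to this response. Rsad2, which encodes the antiviral enzyme viperin, averaged 323 normalized counts in knockout livers, against 643 in wild-type livers (log2 ratio -0.99 ± 0.22, adjusted p = 0.00474) per the authors' deposited table. Cmpk2, a mitochondrial nucleotide kinase encoded next to Rsad2, averaged 162 normalized counts in knockout livers, against 318 in wild-type livers (-0.98 ± 0.25, adjusted p = 0.0391) per the authors' deposited table. Among the 34 tested genes of the interferon response, 0 rose and 1 fell, namely Rsad2, with 30 below 0 and a median of -0.38. Of the 34, 8 were lower at an unadjusted p under 0.05 by the authors' test, against 2.95% of all tested genes. Usp18, a protease that removes ISG15, averaged 378 in knockout and 832 in wild-type livers (-1.14 ± 0.33, adjusted p = 0.152), per the authors' deposited table and did not pass. The knockout effect differed between 28 and 8 weeks for 3 of the 34, against 1.18% of all genes compared, by the Wald test on the difference of the log2 ratios. Members of this list were chosen with earlier results of these data known, so both shares are a description.

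The promoters of this neighbouring pair, chosen after their values were seen, are shown with capitals for a core interferon response motif (TTTCNNTTT, on either strand). Rsad2 lies at chr12:26456403-26456702 on the minus strand and Cmpk2 at chr12:26468965-26469264 on the plus strand of GRCm38.p6, from RefSeq.
Rsad2: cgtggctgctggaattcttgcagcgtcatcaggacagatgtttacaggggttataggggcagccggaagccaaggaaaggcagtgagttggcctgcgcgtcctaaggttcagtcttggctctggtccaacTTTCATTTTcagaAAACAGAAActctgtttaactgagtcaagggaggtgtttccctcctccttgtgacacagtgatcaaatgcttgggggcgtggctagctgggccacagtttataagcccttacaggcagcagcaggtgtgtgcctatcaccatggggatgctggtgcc
Cmpk2: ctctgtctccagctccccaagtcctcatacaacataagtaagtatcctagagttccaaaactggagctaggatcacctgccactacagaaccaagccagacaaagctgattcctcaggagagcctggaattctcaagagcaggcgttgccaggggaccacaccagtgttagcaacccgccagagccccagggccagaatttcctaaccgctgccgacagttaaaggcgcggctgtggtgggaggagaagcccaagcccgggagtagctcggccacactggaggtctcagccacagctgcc
Rsad2 held 2 matches, whose first bases lie 120 and 107 bases before the start site, and the window of Cmpk2 held none. The motif occurred in 10.7% of the 27025 promoters.

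Of the called genes with a mean of at least 500, the largest decrease was that of Cdh1, E-cadherin, the adhesion molecule of epithelial junctions. Cdh1 averaged 1526 normalized counts in knockout livers, against 4355 in wild-type livers (log2 ratio -1.51 ± 0.34, adjusted p = 0.008) per the authors' deposited table. Of 27 genes of epithelial adhesion and junctions, 0 rose and 1 fell, and the median was -0.18.

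Several other called genes with varied roles were lower in the knockout. Il6ra, the alpha chain of the interleukin 6 receptor, averaged 671 normalized counts in knockout livers, against 1153 in wild-type livers (-0.78 ± 0.16, adjusted p = 0.00263) per the authors' deposited table, while site reads gave -0.22. Steap3, the ferrireductase that releases iron from transferrin endosomes, averaged 407 normalized counts in knockout livers, against 838 in wild-type livers (-1.04 ± 0.21, adjusted p = 9.15e-04) per the authors' deposited table, and it was the only called gene among 21 genes of iron handling and haem. Plxna2, a semaphorin receptor, averaged 1102 normalized counts in knockout livers, against 2064 in wild-type livers (-0.91 ± 0.19, adjusted p = 0.004) per the authors' deposited table. Ndrg1, a gene induced by stress and low oxygen, averaged 597 in knockout and 1091 in wild-type livers (-0.87 ± 0.21, adjusted p = 0.0214), and Dysf, dysferlin, which acts in membrane repair, averaged 226 in knockout and 403 in wild-type livers (-0.83 ± 0.21, adjusted p = 0.0347), per the authors' deposited table. Pde7b, a phosphodiesterase of cyclic AMP, averaged 78.7 in knockout and 238 in wild-type livers (-1.59 ± 0.41, adjusted p = 0.047), and Adprh, which removes ADP-ribose from arginine, averaged 174 in knockout and 315 in wild-type livers (-0.86 ± 0.21, adjusted p = 0.0253), per the authors' deposited table. Site reads gave 0.30 for Pde7b, the other direction.

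Further called genes were lower in the knockout. Atf7, a transcription factor of the ATF family, averaged 338 normalized counts in knockout livers, against 849 in wild-type livers (-1.33 ± 0.18, adjusted p = 1.61e-09) per the authors' deposited table, while site reads gave -0.17. Foxp1, a forkhead repressor, averaged 719 in knockout and 1167 in wild-type livers (-0.70 ± 0.16, adjusted p = 0.008), and Srsf1, a splicing factor, averaged 1652 in knockout and 2855 in wild-type livers (-0.79 ± 0.20, adjusted p = 0.0355), per the authors' deposited table. Kmt5c, a methyltransferase of histone H4, averaged 396 in knockout and 614 in wild-type livers (-0.63 ± 0.16, adjusted p = 0.047), and Nup210, a nuclear pore protein, averaged 431 in knockout and 687 in wild-type livers (-0.67 ± 0.17, adjusted p = 0.0444), per the authors' deposited table. Site reads gave 0.03 for Srsf1 and -0.27 for Kmt5c. Rsc1a1, a regulator of sodium-glucose cotransport, averaged 119.8 in knockout and 389 in wild-type livers (-1.70 ± 0.38, adjusted p = 0.0073) per the authors' deposited table. Its annotated span overlaps that of Ddi2, which stood at -0.03 ± 0.11 (adjusted p = 0.9998) in the same table, so reads of these 2 genes could be split between them and the value of Rsc1a1 is uncertain.

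Beside the clock genes, 9 genes were called higher in the knockout. Irx1, a homeobox transcription factor, averaged 296 normalized counts in knockout livers, against 76.1 in wild-type livers (log2 ratio 1.96 ± 0.33, adjusted p = 1.74e-05) per the authors' deposited table. Lgals1, which encodes galectin 1, averaged 815 normalized counts in knockout livers, against 358 in wild-type livers (1.19 ± 0.29, adjusted p = 0.0231) per the authors' deposited table. Tbc1d16, an activator of Rab GTP hydrolysis, averaged 1027 normalized counts in knockout livers, against 385 in wild-type livers (1.42 ± 0.32, adjusted p = 0.00772) per the authors' deposited table. Prkcb, protein kinase C beta, averaged 272 in knockout and 115 in wild-type livers (1.25 ± 0.23, adjusted p = 1.80e-04), and Sytl1, a Rab27 effector of secretion, averaged 390.4 in knockout and 219.6 in wild-type livers (0.83 ± 0.18, adjusted p = 0.00359), per the authors' deposited table. Site reads gave 0.11 for Prkcb. Lhpp, a phosphohistidine phosphatase, averaged 2248 in knockout and 1416 in wild-type livers (0.67 ± 0.15, adjusted p = 0.00551), and Tmem267, a transmembrane protein gene, averaged 297 in knockout and 149 in wild-type livers (0.99 ± 0.25, adjusted p = 0.0285), per the authors' deposited table. Lncbate1, a long noncoding RNA known from brown fat that overlaps Zfhx3, averaged 96.2 in knockout and 28.2 in wild-type livers (1.77 ± 0.40, adjusted p = 0.008) per the authors' deposited table. The olfactory receptor gene Olfr701 had the highest called ratio but low levels, with 79.6 in knockout and 4.5 in wild-type livers (4.15 ± 0.75, adjusted p = 9.71e-05) per the authors' deposited table, and members of that family can share reads. Stab1, Tbc1d16 and Tmem267 also overlap other annotated genes, and whether counting used strand is not given in the labels.

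**Figure D3:**
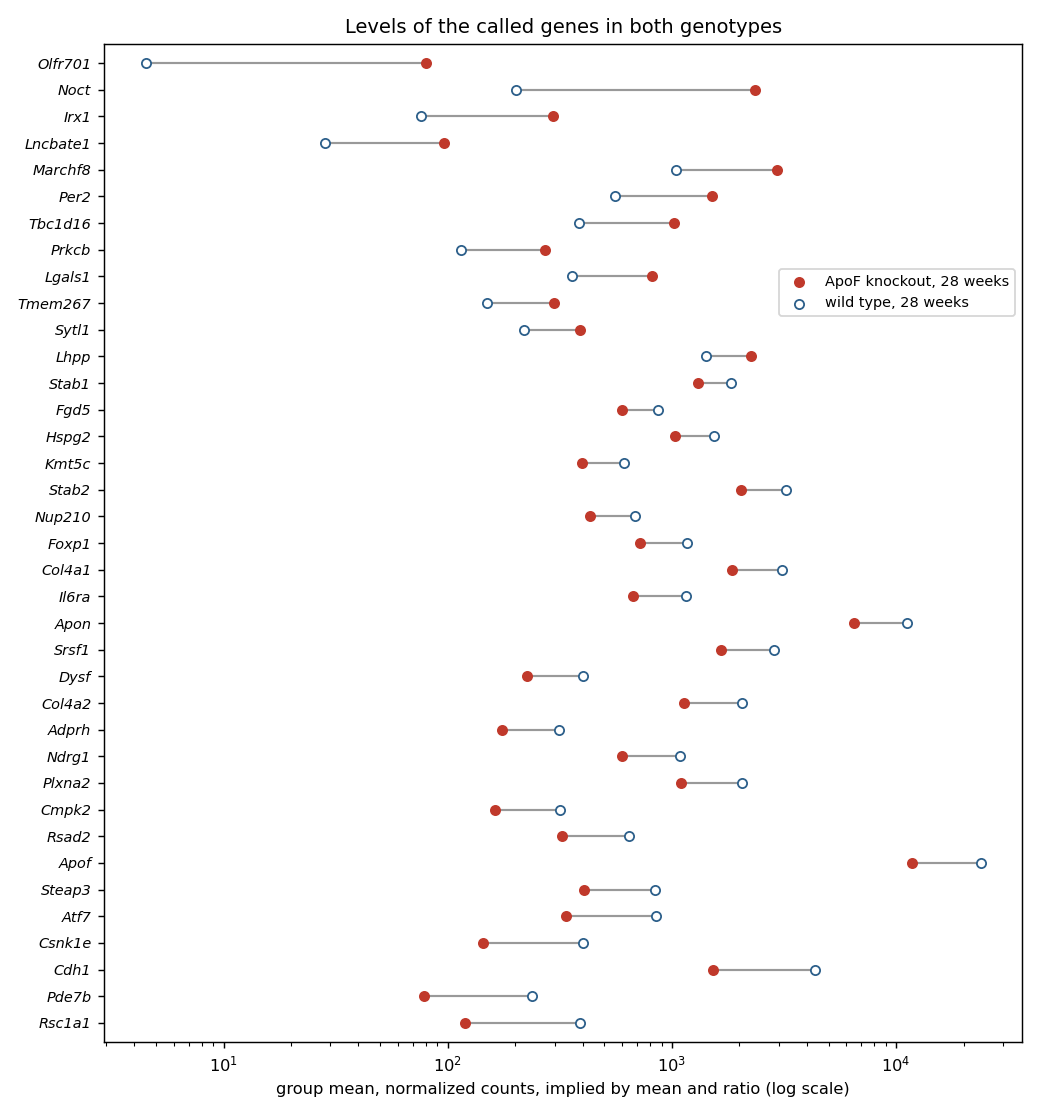
Group means of the 37 called genes in normalized counts (horizontal axis, log scale), implied by the mean and ratio in the deposited table, with filled red points for knockout and open blue points for wild type. The knockout point lies to the right for 12 genes and to the left for 25, and the widest gaps belong to Olfr701 and Noct.

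Stress-induced genes had ratios that leaned by class without a call. Members of these lists were chosen with earlier results of these data known, so their shares and shared directions are a description. Of 22 immediate early genes, 0 were called and the median was -0.51. At an unadjusted p under 0.05 by the authors' test 6 of them were lower, against 2.95% of all tested genes. Egr1, a transcription factor induced by growth signals, averaged 279 normalized counts in knockout livers, against 2992 in wild-type livers (-3.42 ± 1.02, adjusted p = 0.156) per the authors' deposited table. Gadd45g, a stress sensor, averaged 439 in knockout and 1394 in wild-type livers (-1.67 ± 0.45, adjusted p = 0.0698), and Zfp36, a decay factor of short-lived transcripts, averaged 1614 in knockout and 2559.7 in wild-type livers (-0.67 ± 0.18, adjusted p = 0.0906), per the authors' deposited table. Of 15 heat shock chaperones, 0 were called, all lay above 0, 5 of them at an unadjusted p under 0.05 by the authors' test against 2.7% of all genes, and the median was 0.42. Hspa8, the constitutive HSP70, averaged 64049.6 in knockout and 34244 in wild-type livers (0.90 ± 0.28, adjusted p = 0.183), and Bag3, its cochaperone, averaged 2558 in knockout and 1189 in wild-type livers (1.10 ± 0.35, adjusted p = 0.215), per the authors' deposited table. Among 24 genes of the unfolded protein and integrated stress response, 0 were called, 20 lay above 0 and the median was 0.24, with Ddit3, which encodes CHOP, at 1.06 ± 0.38, adjusted p = 0.365 per the authors' deposited table.

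Genes just outside the threshold and at the ends of the range were not called. Lgals3bp, a secreted galectin ligand, had the lowest adjusted p not called and averaged 1731 normalized counts in knockout livers, against 2617 in wild-type livers (-0.60 ± 0.16, adjusted p = 0.0576) per the authors' deposited table. Fgd4, a relative of Fgd5, averaged 725 normalized counts in knockout livers, against 455 in wild-type livers (0.67 ± 0.18, adjusted p = 0.0698) per the authors' deposited table. Among tested genes with a mean of at least 50, the highest ratio not called was that of Pet117, an assembly factor of cytochrome oxidase, with 127 in knockout and 11.8 in wild-type livers (3.43 ± 0.94, adjusted p = 0.083), and the lowest that of Akap2, an anchor of protein kinase A, with 0.175 in knockout and 162 in wild-type livers (-9.85 ± 3.91, adjusted p = 0.553), per the authors' deposited table. Akap2 was near 0 in the knockout group, so its ratio is not a bound on the size of the difference. Just inside the threshold lay Pde7b and Kmt5c, each with an adjusted p of 0.047.

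Lists of secreted and metabolic proteins of hepatocytes held no called gene in the following cases. Complement and coagulation genes had 0 calls among 34 and a median of -0.09, and amino acid catabolism and urea cycle genes 0 calls among 30 and a median of 0.19. Oat, ornithine aminotransferase of pericentral hepatocytes, averaged 35742 normalized counts in knockout livers, against 21939 in wild-type livers (0.70 ± 0.21, adjusted p = 0.153) per the authors' deposited table. Fga, a fibrinogen chain, averaged 224673 normalized counts in knockout livers, against 286535 in wild-type livers (-0.35 ± 0.11, adjusted p = 0.215) per the authors' deposited table. Igfbp1, a fasting-induced binding protein of insulin-like growth factors, averaged 627 normalized counts in knockout livers, against 1942 in wild-type livers (-1.63 ± 0.51, adjusted p = 0.211) per the authors' deposited table. Genes of xenobiotic metabolism (0 of 30), the Nrf2 pathway (0 of 19), p53 targets (0 of 21), the cell cycle (0 of 29) and hepatocyte transcription factors (0 of 21) held no called gene per the authors' deposited table. The m6A writers, erasers and readers had 0 calls among 25, and Hnrnpc, a nuclear reader, stood at 0.40 ± 0.12, adjusted p = 0.153 per the authors' deposited table.

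Genes known to differ between male and female mice had wide errors or no p at all. The authors' deposited table gives no p for 61 of the 17834 genes with counts (0.342%), and 20 of the 24 female-biased liver genes were among these 61 (83.3% of the list). Cyp3a41a, a female-specific steroid hydroxylase, averaged 41655 normalized counts in knockout livers, against 26130.0 in wild-type livers, at 0.67 ± 2.54, and A1bg, a female-biased secreted protein, averaged 17066 and 6632 in these groups at 1.36 ± 3.15, per the authors' deposited table. Male-biased genes kept their p but had wide errors, with an SE of at least 1 for 14 of the 18 with a mean of 500 or more (77.8%), against 94 of 7084 genes of that level (1.33%). Cyp4a12a, a male-specific fatty acid hydroxylase, stood at -0.79 ± 2.28, and Mup20, a major urinary protein, at 0.33 ± 1.78, per the authors' deposited table. The Y-linked gene Ddx3y averaged 2189 normalized counts in knockout livers, against 2232 in wild-type livers (-0.03 ± 2.28), and Xist, the RNA of the inactive X chromosome, 8903 normalized counts in knockout livers, against 8747 in wild-type livers (0.03 ± 2.57), per the authors' deposited table. By comparison, the SE had a median of 0.254 over all tested genes. The 4 sex-biased genes quoted here were chosen after their values were seen. The labels give no sex. Y-linked RNA and Xist were both abundant in each genotype, as in groups that hold males and females. The part of sex in the number of calls was not tested.

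The 8-week libraries come from other animals, so the knockout effects at both ages rest on separate libraries. At 8 weeks the authors' deposited table called 757 of 15214 genes (4.98%). The effect differed between 28 and 8 weeks for 201 of 16988 genes (1.18%) by a Wald test on the difference of the log2 ratios with Benjamini-Hochberg adjustment. Among them were 14 of the 37 genes called at 28 weeks. These 37 were chosen by a call in one of the ages compared, so their share cannot be set against that of all genes. In the 8-week groups, Xist averaged 10192 in knockout, against 21017 in wild type. Ddx3y averaged 2338 in knockout, against 0.178 in wild type, so these groups differed in Y-linked RNA. With no values per library, this cannot be told apart from the knockout effect at 8 weeks or from the differences between ages.

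The pair next to each other on the chromosome, Apof and Apon, had negative ratios at either age, all called. Apof stood at -1.01 ± 0.16 at 28 weeks and -0.70 ± 0.11 at 8 weeks per the authors' deposited tables, a difference of -0.31 ± 0.19, adjusted p = 0.674. Apon stood at -0.78 ± 0.10 at 28 weeks and -0.92 ± 0.25 at 8 weeks per the authors' deposited tables, a difference of 0.14 ± 0.27, adjusted p = 0.974. Csnk1e also had like ratios, -1.48 ± 0.33 at 28 weeks and -1.41 ± 0.44 at 8 weeks (adjusted p = 0.03) per the authors' deposited tables. None of these 3 differences passed the test, which does not show that the effects are equal.

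The type IV collagen genes were called at both ages with opposite signs. Col4a2 stood at -0.85 ± 0.16 at 28 weeks and 1.91 ± 0.29 at 8 weeks (adjusted p = 3.08e-08) per the authors' deposited tables, with a difference of -2.77 ± 0.34, adjusted p = 1.55e-12. Col4a1 stood at -0.74 ± 0.17 and 1.80 ± 0.32 (adjusted p = 4.10e-06 at 8 weeks) in these tables, with a difference of -2.54 ± 0.36, adjusted p = 6.52e-09. The difference between ages passed for 11 of 27 genes on the stellate cell, fibroblast and matrix list, against 1.18% of all genes compared. That list was chosen with earlier results of these data known, so its share is a description. The list's median was -0.33 at 28 weeks and 0.99 at 8 weeks. For sinusoidal endothelial markers the difference passed for 0 of 25, with medians of -0.37 at 28 weeks and 0.08 at 8 weeks. This test concerns the knockout effect and not a change with age, and the 8-week groups also differed in Y-linked RNA.

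Irx1 and Adprh were called at both ages with opposite signs. Irx1 stood at 1.96 ± 0.33 at 28 weeks and -4.26 ± 0.83 at 8 weeks per the authors' deposited tables, with levels at 8 weeks of 5.05 in knockout, against 96.4 in wild type, and a difference of 6.21 ± 0.89, adjusted p = 9.00e-09. Adprh stood at -0.86 ± 0.21 at 28 weeks and 1.23 ± 0.25 at 8 weeks per the authors' deposited tables, with a difference of -2.09 ± 0.32, adjusted p = 1.99e-07. Called at 28 weeks alone but with a tested difference were Cdh1 (-2.28 ± 0.45, adjusted p = 2.34e-04), Noct (4.42 ± 1.23, adjusted p = 0.033) and Per2 (2.10 ± 0.59, adjusted p = 0.035). The remaining 7 were Rsad2, Foxp1, Hspg2, Steap3, Atf7, Sytl1 and Tbc1d16.

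**Figure D4:**
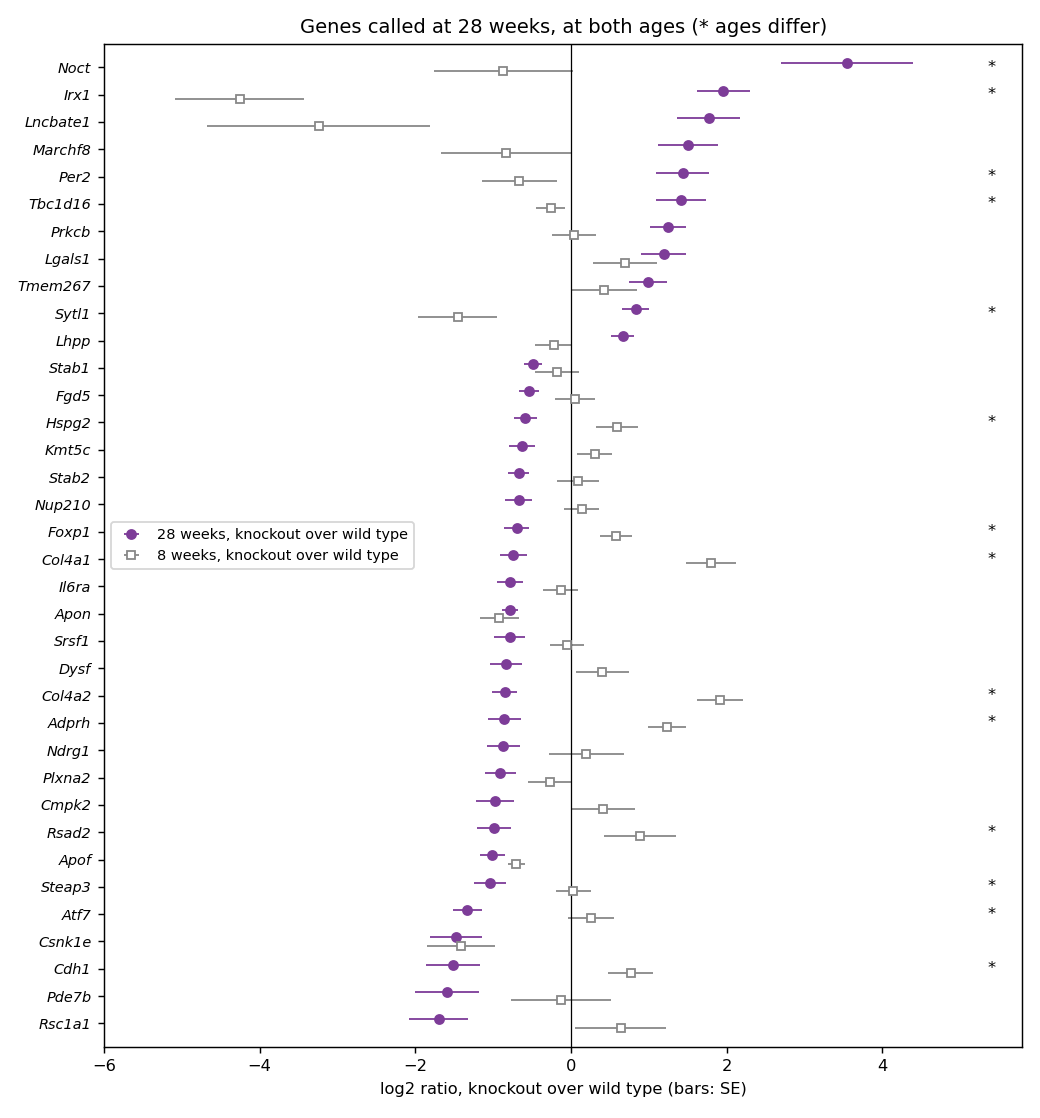
Log2 ratio of knockout over wild type ± SE (horizontal axis) for genes called at 28 weeks, with filled circles for 28 weeks and open squares for 8 weeks. Olfr701, whose 8-week SE is 3.97, is left out. Stars mark the 14 genes whose ratios differ between the ages. Apof, Apon and Csnk1e lie left of 0 at both ages, while Col4a1, Col4a2 and Adprh lie left of 0 at 28 weeks and right of it at 8 weeks.

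Reads at m6A sites offered a second count of the same input libraries, since the authors' site table lists input reads summed per group at each site. Scaled by the group totals of 80819641 reads in knockout and 77187809 in wild type, they could be set beside the gene ratio for 34 called genes with at least 50 reads in each group. For 25 of these the site reads gave the same direction with at least 50% of the log2 ratio, for 7 the same direction with less, and for 2 the other direction. Noct had 1684 input reads in the knockout group, against 124 in the wild-type group, a log2 ratio of 3.69, and Cdh1 had 2193 input reads in the knockout group, against 6129 in the wild-type group, a log2 ratio of -1.55, close to their gene-level ratios. Irx1 (1.998), Col4a1 (-0.72), Col4a2 (-0.83), Rsad2 (-0.93), Stab2 (-0.55) and Apon (-0.81) also kept most of their log2 ratio.

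Other called genes did not keep theirs. Pde7b had 985 input reads in the knockout group, against 763 in the wild-type group, a log2 ratio of 0.30 in place of -1.59 ± 0.41 in the authors' deposited gene table. Srsf1 had 6969 input reads in the knockout group, against 6538 in the wild-type group, a log2 ratio of 0.03 in place of -0.79 ± 0.20 in that table. Atf7 gave -0.17 from 1043 input reads in the knockout group, against 1123 in the wild-type group, Csnk1e -0.26 from 413 input reads in the knockout group, against 474 in the wild-type group, and Marchf8 0.21 from 4318 input reads in the knockout group, against 3568 in the wild-type group. Prkcb gave 0.11, Il6ra -0.22, Kmt5c -0.27 and Per2 0.59. Site reads cover only part of a transcript and carry no spread between animals, and why the counts differ was not tested.

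**Figure D5:**
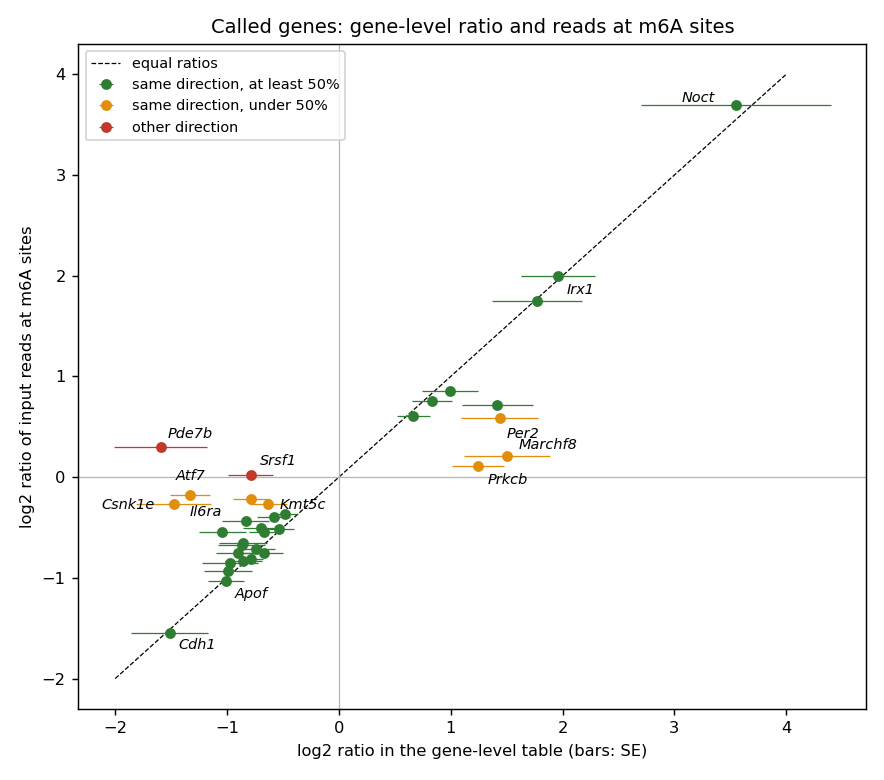
Log2 ratio of input reads at m6A sites, summed per gene and scaled by group totals (vertical axis), against the gene-level log2 ratio ± SE (horizontal axis), knockout over wild type, for 34 called genes. Green points keep the direction and at least 50% of the log2 ratio, orange points keep the direction with less, and the 2 red points, Pde7b and Srsf1, have the other sign. Noct, Irx1, Apof and Cdh1 lie on or near the dashed line of equal ratios.

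In the called genes, 3 sites were called different in m6A level between the genotypes. Of 18751 sites with an adjusted p per the authors' deposited table of sites, 1722 were called (9.18%), 481 higher and 1241 lower in the knockout. The called genes held 195 listed sites, 60 with an adjusted p and 3 called, in Apof, Apon and Il6ra. The log2 ratio of m6A in knockout over wild type was -0.05 (adjusted p = 0.0443) at the Apof site, -0.12 (adjusted p = 1.93e-05) at the Apon site and -0.32 (adjusted p = 0.0258) at the Il6ra site per the authors' deposited table of sites. With 60 sites this count is near the share among all sites, and no difference between the shares was tested. At the 3 called sites the p-values match the counting error of reads summed per group. Spread between animals therefore does not enter them, and reads stand in the place of animals.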

How the data were processed

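RNA of 3 knockout and 3 wild-type livers at 28 weeks was compared, each library from a separately numbered animal per the labels; input libraries of 8 weeks served for the comparison of ages. The submitters' processing notes name HISAT2, StringTie and DESeq without roles; for the genome build and the settings, the sources used here give none. The deposited gene tables hold, per the file headers, the authors' mean normalized count (a signal over all libraries of the comparison), log2 fold change with SE, p-value and adjusted p-value from DESeq2. The authors' site tables hold read counts per group at each m6A site. The deposited tables give no values per library, so the planned count fits gave way to the authors' own results, and 4 columns of summed reads, in the m6A table of the knockout age comparison, were not used.

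The deposited log2 fold change was turned in sign. The deposited ratio correlated (Pearson, across genes, which are not independent replicates) at -0.545 with knockout over wild-type input counts at sites over 11366 genes, which set its direction. Group means followed from mean and ratio. Called means an adjusted p under 0.05, from the authors' Wald test with Benjamini-Hochberg adjustment. The knockout effects at both ages were compared by a Wald test on the difference of the log2 ratios. Site counts were summed per gene, scaled by group totals, with 0.5 added, for genes with at least 50 reads per group. The arithmetic was checked on simulated data.

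Members and the 38 gene lists were chosen with earlier results of these data known. The text names all called genes, the members of each list with the smallest p at a mean of at least 50, the 5 genes nearest above the threshold, the 5 highest and 5 lowest ratios not called, Apof, Apon, Y-linked genes and Xist; others are marked as chosen after their values were seen. Some genes that this rule names are not reported here. Promoters came from RefSeq (GRCm38.p6), from 250 bases before to 50 after the start. Alternatives were adjusted p under 0.01 and 0.1, filters on the mean at 50 and 500, adjustment over all genes with a p, centring, a t reference with 4 degrees of freedom and site reads. Scripts ran under Python 3.11.15 with pandas 2.3.3, numpy 2.4.6, matplotlib 3.10.9 and scipy 1.17.1. P-values of the RNA comparisons measure the spread among these animals only. Those of the 3 called m6A sites match the counting error of reads summed per group.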

Additional observations from a re-analysis of the deposited data

Results flagged for a closer look

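The knockout effect differed between 28 and 8 weeks for 14 of the 37 genes called at 28 weeks, by a Wald test on the difference of the log2 ratios with Benjamini-Hochberg adjustment over 16988 genes, of which 201 passed (1.18%). The difference, 28 weeks less 8 weeks, was 6.21 ± 0.89, adjusted p = 9.00e-09 for Irx1, 4.42 ± 1.23, adjusted p = 0.033 for Noct, 2.29 ± 0.54, adjusted p = 0.00518 for Sytl1, 2.10 ± 0.59, adjusted p = 0.035 for Per2 and 1.68 ± 0.37, adjusted p = 0.00187 for Tbc1d16. It was -2.77 ± 0.34, adjusted p = 1.55e-12 for Col4a2, -2.54 ± 0.36, adjusted p = 6.52e-09 for Col4a1, -2.28 ± 0.45, adjusted p = 2.34e-04 for Cdh1, -2.09 ± 0.32, adjusted p = 1.99e-07 for Adprh and -1.88 ± 0.51, adjusted p = 0.0287 for Rsad2. It was -1.59 ± 0.35, adjusted p = 0.00165 for Atf7, -1.28 ± 0.26, adjusted p = 4.04e-04 for Foxp1, -1.17 ± 0.31, adjusted p = 0.017 for Hspg2 and -1.07 ± 0.30, adjusted p = 0.0384 for Steap3. Each effect rests on 3 animals per genotype and age. The 28-week genes were chosen by a call in one of the ages compared. The 8-week groups differed in Y-linked RNA, with Ddx3y at 2338 in knockout, against 0.178 in wild type. With no values per library, this cannot be told apart from the knockout effect at 8 weeks or from the differences above.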

How the results depend on the processing

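The 37 calls became 21 (7 higher, 14 lower) at an adjusted p under 0.01, and with a mean of at least 500 there were 6 higher. With a t reference on 4 degrees of freedom they became 0 (0 higher, 0 lower), with 206 genes at an unadjusted p under 0.05, against 814 by the authors' test. Over so many genes this reference passes only ratios very many times their SE, so the 0 does not judge single calls. The 1722 called m6A sites became 1103 at an adjusted p under 0.01. Adjustment over every gene with a p left 34 calls, without Pde7b, Nup210 and Kmt5c. From site reads the log2 ratio was 0.30 for Pde7b and 0.026 for Srsf1, the opposite sign, and the cause was not tested. All other alternatives for the counts of calls stayed within 1.5 times. Centring on the median kept all 37 calls. No paired analysis was possible because the deposited gene tables hold no values per library, and leaving out each replicate was not run for the same reason. The values of single animals are therefore unseen, and an outlying library cannot be named. Spread between animals enters only through the SE, and 61 genes with counts have no p.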
